A study of Mus musculus with 16 samples.

Results

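Histones are the proteins that package DNA. Mouse livers with a knockout of the microRNA miR-33 carried more RNA assigned to 3 genes for the core histone H2B, Hist1h2br, Hist1h2bq and Hist1h2bk. The coding sequences of these copies are near-identical, as are those of some other H2B genes. The histone genes described here are the 50 protein-coding rows, of 23258 rows in all, whose names begin with Hist and a digit, H2af, H3f3 or H1f. They were chosen by name, except that the 3 H2B copies were picked because they rise in knockout livers, so their knockout values are a description, and calls in that comparison are counted only beside the share of all genes called. The members comprise 8 genes for H1, 13 for H2A, 10 for H2B, 7 for H3 and 12 for H4. Of these, 32 lie in the Hist1 cluster on chromosome 13, 6 in the Hist2 cluster, 1 each in Hist3 and Hist4, and 10 outside the clusters. A further 5 rows with such names are not protein coding and were not used.

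Liver RNA came from C57BL/6 mice with a liver-specific knockout of miR-33 (KO) or without it (WT), fed a high-fat diet (HFD) or chow. There were 5 KO HFD, 4 WT HFD, 4 KO chow and 3 WT chow libraries. The deposited table is named for Alb-Cre, a recombinase under the albumin promoter, which is active in hepatocytes. The labels give no sex, age, length of feeding or batch and do not say whether WT mice carry Cre. Nor do they state that each library is a separate animal, and a p-value here reflects the spread between libraries, which may be technical. MiR-33 itself was not analysed here.

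Nucleosomes hold a pair each of H2A, H2B, H3 and H4, and H1 binds the linker DNA between them. The cluster genes are mostly replication-dependent: their mRNAs peak in S phase and end in a stem-loop instead of a poly(A) tail. Genes outside the clusters, such as H3f3a and H3f3b for H3.3 and H2afz for H2A.Z, make variants that are laid down throughout the cell cycle and usually carry poly(A) tails. Most hepatocytes in an adult liver are not dividing. Some cluster genes also yield polyadenylated mRNA in differentiated cells.

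The RNA was depleted of ribosomal RNA, not selected for poly(A), per the labels' protocols. Library totals were 20993930 to 29469645 estimated counts in KO HFD, 16149911 to 25823475 in WT HFD, 15888436 to 26821573 in KO chow and 17502937 to 22902669 in WT chow, and levels are given as CPM, counts relative to library totals scaled by the TMM method. All 8 hepatocyte markers were present, with a summed level of 63172 to 81005 CPM in KO HFD, 63762 to 79362 in WT HFD, 82839 to 95740 in KO chow and 84410 to 92536 in WT chow. Of the 50 histone genes, 30 passed the filter on low counts. The other 20 were H1fx, Hist1h1a, Hist1h1b, Hist1h1t, Hist1h2bh, Hist1h2bj, Hist1h3a, Hist1h3c, Hist1h3d, Hist1h3e, Hist1h4a, Hist1h4b, Hist1h4d, Hist1h4j, Hist1h4k, Hist1h4m, Hist1h4n, Hist2h2ac, Hist2h4 and Hist4h4. Together these 20 summed to between 1.42 and 2.9 CPM in KO HFD, 1.18 and 1.95 in WT HFD, 1.46 and 2.66 in KO chow and 1.57 and 2.25 in WT chow.

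How alike the H2B copies are decides how far their separate values can be read. The coding sequences compared were 378 bases long in all 10 H2B genes. Hist1h2br and Hist1h2bq were identical over it, and Hist1h2bk differed from them at 5 bases. Hist1h2bc and Hist1h2bj, which were not picked, were closer to them, at 2 bases each, and Hist2h2be differed at 46. Coding bases 151 to 378 are printed here from GENCODE M21 on GRCm38 (mm10), since all 5 Hist1h2bk differences and 1 of those of Hist1h2bc lie there. Capitals mark bases that differ from Hist1h2br. Hist1h2br occupies chr13:21833921-21834148 on the plus strand, Hist1h2bk chr13:22036037-22036264 on the plus strand and Hist1h2bc chr13:23684382-23684609 on the plus strand. The same stretch of Hist1h2bq, at chr13:21809794-21810021 on the minus strand, has the letters of Hist1h2br.
Hist1h2br: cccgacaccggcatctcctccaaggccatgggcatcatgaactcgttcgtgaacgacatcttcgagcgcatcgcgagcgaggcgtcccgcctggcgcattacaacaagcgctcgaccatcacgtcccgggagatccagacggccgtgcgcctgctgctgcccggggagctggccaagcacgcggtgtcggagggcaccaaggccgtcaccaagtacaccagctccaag
Hist1h2bk: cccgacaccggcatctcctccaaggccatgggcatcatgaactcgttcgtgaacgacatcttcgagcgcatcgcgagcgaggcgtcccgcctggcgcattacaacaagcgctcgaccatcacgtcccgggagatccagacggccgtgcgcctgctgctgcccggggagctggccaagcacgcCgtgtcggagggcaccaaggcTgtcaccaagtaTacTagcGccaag
Hist1h2bc: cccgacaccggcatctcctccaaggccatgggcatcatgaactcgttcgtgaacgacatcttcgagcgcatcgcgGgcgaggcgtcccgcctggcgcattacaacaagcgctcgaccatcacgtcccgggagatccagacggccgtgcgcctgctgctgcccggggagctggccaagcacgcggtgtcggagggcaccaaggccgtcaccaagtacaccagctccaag

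The likeness reaches beyond the coding part. Of the 2015 windows of 75 bases, the read length in the labels, in Hist1h2bq transcripts, 79 (3.92%) occur in no other annotated gene, and 1628 are shared with Hist1h2br alone. In Hist1h2br 275 of 2212 windows (12.4%) were its own, and in Hist1h2bk 110 of 402 (27.4%). Hist1h2bc had 72.9% and Hist2h2be 100% of its windows to itself. How reads were divided between copies in the deposited counts is not stated. The split between Hist1h2br and Hist1h2bq is therefore uncertain, and their sum with Hist1h2bk is given beside each.

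**Figure D1:**
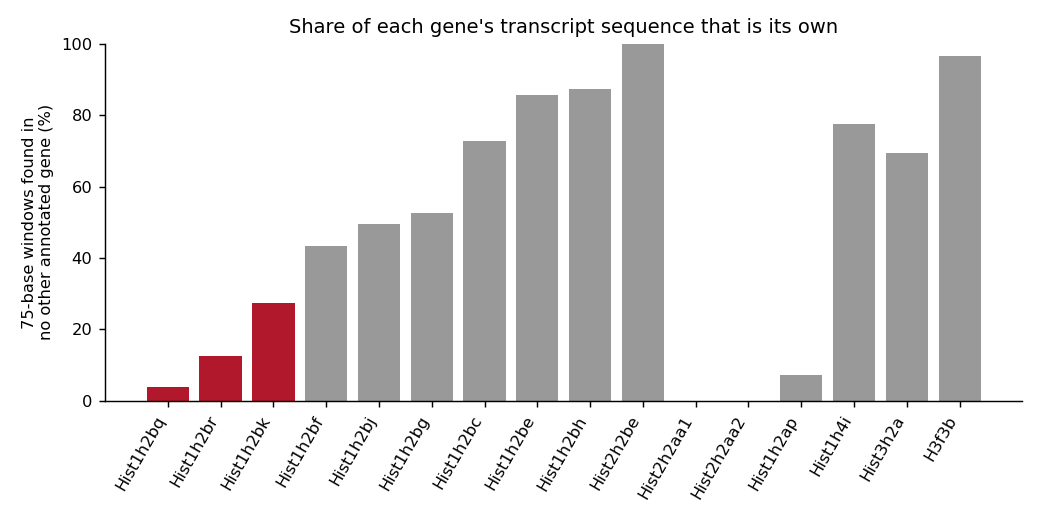
Bars show the percent of 75-base transcript windows that occur in no other annotated gene, for the 10 H2B genes and 6 other histone genes. Hist1h2bq, Hist1h2br and Hist1h2bk (red) have 3.92%, 12.4% and 27.4%, Hist2h2aa1 and Hist2h2aa2 have 0, and H3f3b has 96.6%.

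The regions before the genes showed the same grouping. The RefSeq promoters (GRCm38.p6, 250 bases before and 50 after the annotated start) of Hist1h2br and Hist1h2bq were identical over 300 bases, while that of Hist1h2bk was 48.4% identical to either. Of the 3 picked copies, the Hist1h2br promoter, at chr13:21833493-21833792 on the plus strand, and the Hist1h2bk promoter, at chr13:22035571-22035870 on the plus strand, are shown. Capitals mark matches on either strand to CCAAT, the letters bound by NF-Y, to TATAAA, the core of a TATA box, and to ATTTGCAT, the octamer bound by Oct1 (Pou2f1) that is known from H2B promoters. No matches overlapped.
Hist1h2br: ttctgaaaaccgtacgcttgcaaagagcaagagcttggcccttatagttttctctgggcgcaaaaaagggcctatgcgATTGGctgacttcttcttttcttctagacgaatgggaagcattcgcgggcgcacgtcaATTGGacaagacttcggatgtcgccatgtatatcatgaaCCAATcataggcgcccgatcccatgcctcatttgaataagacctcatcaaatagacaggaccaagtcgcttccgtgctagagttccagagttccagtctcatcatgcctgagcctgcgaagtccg
Hist1h2bk: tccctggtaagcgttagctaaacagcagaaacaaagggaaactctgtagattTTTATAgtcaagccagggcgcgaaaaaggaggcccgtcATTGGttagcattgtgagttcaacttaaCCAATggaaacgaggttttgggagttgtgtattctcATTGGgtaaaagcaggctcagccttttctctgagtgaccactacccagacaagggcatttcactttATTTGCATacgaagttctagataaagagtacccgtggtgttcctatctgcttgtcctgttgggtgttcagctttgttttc

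Each of the 3 promoters held 3 CCAAT matches, and the one of Hist1h2bk also held 1 octamer and 1 TATAAA match. Relative to the RefSeq start the octamer began at -30. The GENCODE start of Hist1h2bk, chr13:22035870, is a different position, at the last base of the printed promoter. The TATAAA match began at -198 and was on the opposite strand, so it is a match of letters only. Of the 45 members with a RefSeq promoter, 34 (75.6%) held CCAAT, 20 (44.4%) TATAAA and 7 (15.6%) the octamer, against 37.4%, 13.6% and 1.74% of all 32851 promoters. The printed Hist1h2br promoter spans the 235 bases between Hist1h2br and Hist1h2ap, an H2A gene that runs the other way. The microRNA's own pairing letters were also searched. Mature miR-33-5p, from the intron of Srebf2 at chr15:82198127-82198147 (GRCm38.p6, plus strand), is shown with its seed, bases 2 to 8, in capitals.
miR-33-5p: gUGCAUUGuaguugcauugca

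The letters that pair with this seed, CAATGCA, occurred in annotated transcripts of 2 of the 50 histone genes, H2afy and Hist1h2ac, and in none of the 3 H2B copies. Among 13158 tested genes with a protein-coding transcript 22.1% held them. These shares were not matched for transcript length, and the 50 include genes that did not pass the filter. A match or its absence in these transcripts is a description of letters.

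Hist1h2br (chr13:21833743-21837530) was at 4.21, 3.33, 2.64, 3.38 and 3.77 CPM in the KO HFD libraries, against 0.611, 0.383, 0.168 and 0.319 CPM in the WT HFD libraries. On chow it was at 3.04, 4.61, 2.69 and 4.59 CPM in KO, against 0.988, 0.349 and 0.355 CPM in WT. Every KO library lay above every WT library on both diets. The log2 fold change of KO over WT was 3.18 ± 0.33 on HFD and 2.68 ± 0.37 on chow (SE). Without WT chow library 1, the highest of the WT libraries, the value on chow was 3.40.

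Hist1h2bq (chr13:21806612-21810197) was at 1.17, 1.77, 1.24, 0.942 and 1.19 CPM in KO HFD, against 0.115, 0.104, 0.168 and 0 CPM in WT HFD. On chow its levels were 2.01, 0.948, 2.27 and 0.265 CPM in KO, against 0, 0.116 and 0.178 CPM in WT. The groups did not overlap on either diet, and the KO chow libraries were the most scattered. Hist1h2bq took between 5.45% and 45.7% of the joint Hist1h2br and Hist1h2bq level in single KO chow libraries, and between 21.7% and 34.7% in KO HFD libraries.

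Hist1h2bk (chr13:22035870-22036345) was at 1.54, 1.43, 2.19, 1.26 and 1.22 CPM in KO HFD, against 0.153, 0.0696, 0.211 and 0.372 CPM in WT HFD. On chow it was at 0.761, 1.55, 0.212 and 1.72 CPM in KO, against 0.0941, 0.291 and 0.118 CPM in WT. The groups were apart on HFD and overlapped on chow, where 1 KO library lay below 1 WT library. These are few reads: the 3 WT chow libraries held 1.83, 4.58 and 2.38 estimated counts of Hist1h2bk. At least 10 estimated counts were reached in 9 of 9 KO and 3 of 7 WT libraries for Hist1h2br, and in 8 of 9 KO and 0 of 7 WT libraries each for Hist1h2bq and Hist1h2bk, so these last 2 passed the filter through the KO libraries.

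The sum of the 3 copies does not depend on how reads were split among them. It can still depend on how reads were divided with other H2B genes. Of 259 windows of 75 bases shared by all 3 copies, 1 was theirs alone. Hist1h2bc shared 175 windows with Hist1h2bq and 126 with Hist1h2bk. The sum was 6.93, 6.53, 6.07, 5.58 and 6.18 CPM in KO HFD, against 0.879, 0.556, 0.547 and 0.691 CPM in WT HFD. On chow the sum was 5.81, 7.11, 5.17 and 6.58 CPM in KO, against 1.08, 0.757 and 0.651 CPM in WT. Relative to its mean, the sum varied less between KO chow libraries than each single copy did, and KO libraries lay above all WT libraries. Summed in the fit, the copies had a log2 fold change of 3.22 ± 0.19 on HFD and 2.87 ± 0.22 on chow (SE).

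**Figure D2:**
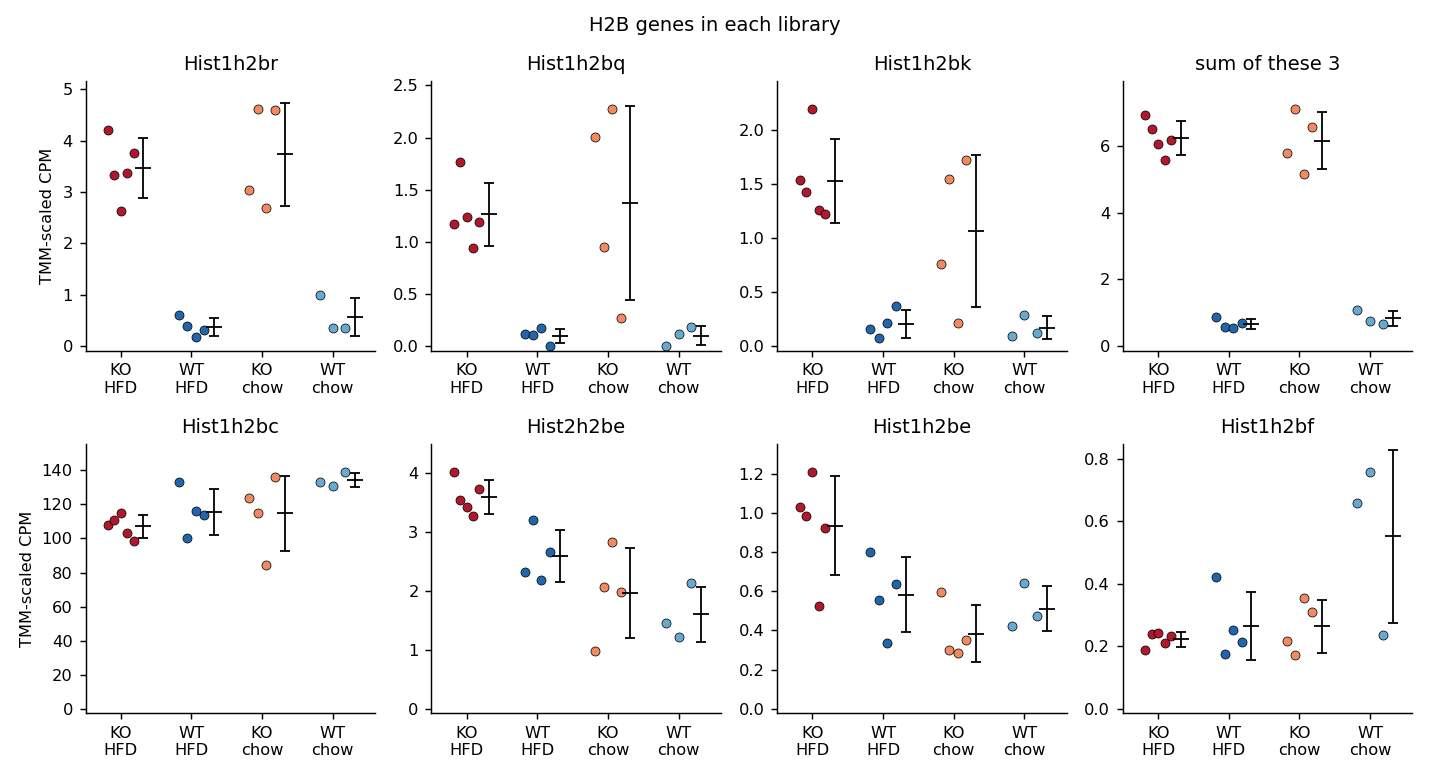
Each point is 1 library, in TMM-scaled CPM, for 7 H2B genes and for the sum of the 3 copies, with the mean and SD of each group beside the points (n = 5 KO HFD, 4 WT HFD, 4 KO chow and 3 WT chow). The sum lies between 5.17 and 7.11 CPM in KO and between 0.547 and 1.08 CPM in WT, while Hist1h2bc overlaps between KO and WT on both diets.

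In reads the copies were a small part of H2B. They held 4.77% to 5.72% of the summed H2B CPM in KO HFD, 0.455% to 0.636% in WT HFD, 4.39% to 5.67% in KO chow and 0.456% to 0.788% in WT chow. The summed H2B level was 119 ± 7.04 CPM in KO HFD and 121 ± 13.5 CPM in WT HFD, and 124 ± 21.9 CPM in KO chow and 138 ± 3.88 CPM in WT chow (SD). The KO and WT ranges of the H2B sum overlapped on each diet.

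Among all genes tested, 0.00594% passed for KO against WT on HFD, 0.00594% on chow and 0.0178% over both diets, where 3.48% had an unadjusted p under 0.05 (edgeR quasi-likelihood test, Benjamini-Hochberg adjusted p under 0.05). The members that passed were Hist1h2br on HFD, Hist1h2br on chow and the 3 picked copies over both diets, from which nothing is read, since they were picked on this contrast. Over both diets the 3 copies had log2 fold changes of 3.68 (Hist1h2bq), 2.93 (Hist1h2br) and 2.85 (Hist1h2bk). The next histone genes were Hist2h2be at 0.38 and Hist2h3c2, an H3 gene of the Hist2 cluster, at 0.24. At the low end, with means of at least 0.5 CPM in 1 group, were Hist1h2bf at -0.67 and the linker histone genes Hist1h1d and Hist1h1c at -0.41 each. The macroH2A gene H2afy2 at -0.27 and Hist1h2bc at -0.17 followed. These averages differed by diet. On HFD and chow, Hist1h2bf was at -0.25 and -1.09, Hist1h1d at 0.05 and -0.88, and Hist1h1c at -0.06 and -0.75. H2afy2 was at -0.51 on HFD and -0.02 on chow, and Hist1h2bc at -0.11 and -0.22. Over both diets the 27 tested members other than the picked copies had a median of -0.02, against 0.00 for all 16830 genes. Their median was 0.06 on HFD and -0.10 on chow, against 0.00 for all genes on each diet.

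Other tested genes in the neighbourhood did not pass for KO against WT. Over both diets 0.0178% of all genes passed, all of them picked copies, so nothing is read from this. The 3 copies span 230 kb of the Hist1 cluster, with 23.5 kb between Hist1h2bq and Hist1h2br and 198 kb between Hist1h2br and Hist1h2bk, and 3 other members lie within that span. Hist1h2ap, next to Hist1h2br, averaged 0.849 ± 0.396 CPM in KO HFD and 0.734 ± 0.184 CPM in WT HFD, and 0.347 ± 0.0294 CPM in KO chow and 0.442 ± 0.109 CPM in WT chow (SD). Only 7.35% of its 75-base windows are its own, so this value is uncertain. The other members there, Hist1h4m and Hist1h4n, were not tested and averaged at most 0.258 CPM in any group. Hist1h4i, the H4 gene 207 kb from the start of Hist1h2br, had a KO log2 fold change of -0.14 over both diets.

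Further along, 5 of 11 other genes between the outermost Hist1 members were tested. Among them was Hfe (chr13:23702034-23710854), the hemochromatosis gene that acts in the control of hepcidin and iron uptake. Hfe was at 32.7, 36.1, 38, 37.4 and 35.6 CPM in KO HFD, against 39.7, 45.4, 43.8 and 40.1 CPM in WT HFD. On chow it was at 42.9, 46.4, 41.4 and 42 CPM in KO, against 52.1, 48 and 56.4 CPM in WT. All KO libraries lay below all WT libraries of the same diet, with log2 fold changes of -0.23 ± 0.07 on HFD and -0.27 ± 0.08 on chow (SE). The noncoding gene Gm46404, the RNA polymerase II regulator Abt1 and the zinc finger gene Zfp322a had values of 0.16, 0.05 and -0.02 over both diets. The pseudogene Gm11295, with a mean of 0.767 CPM and named here after its values were seen, was at 0.08 on HFD and -1.14 on chow.

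**Figure D3:**
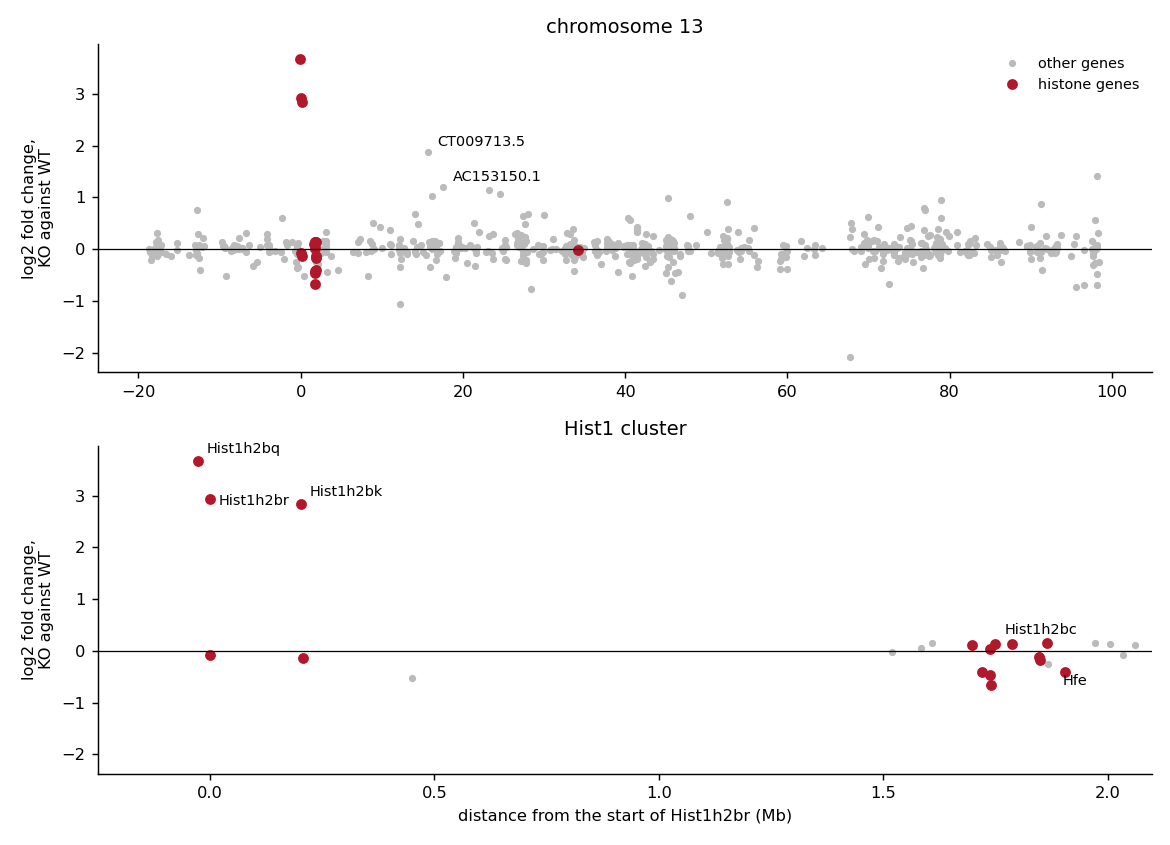
The log2 fold change of KO over WT across both diets is plotted for each tested gene of chromosome 13 (top) and of the Hist1 cluster (bottom) against the distance of its start from the start of Hist1h2br in Mb. Histone genes are red, and Hist1h2bq, Hist1h2br and Hist1h2bk at 3.68, 2.93 and 2.85 stand above all other genes, with CT009713.5 at 1.88 next.

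Over the 16 libraries, the log2 CPM of Hist1h2br had a Pearson correlation of 0.78 with Hist1h2bq and 0.81 with Hist1h2bk, and Hist1h2bq with Hist1h2bk had 0.66. Of 13439 genes with a mean of at least 1 CPM, the most alike were the noncoding gene CT009713.5, also on chromosome 13 (0.76), Gm4707 (0.75), the TRIM family gene Trim34a (0.72), the splicing factor gene Slu7 (0.71) and the phosphoglucomutase family gene Pgm5 (0.71). These correlations describe libraries that share genotype, diet and depth.

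The diet comparison was not used to choose any member, and it was tested. In KO livers, 8 of 30 histone genes passed for HFD against chow: Hist1h1d, Hist1h2ap, Hist1h2be, Hist1h4i, Hist2h2be, Hist3h2a and H3f3b rose, and Hist2h2aa2 fell. In WT livers 3 of 30 passed, H3f3b, Hist1h4i and H2afz, all higher on HFD. Of all genes, 33.6% passed in KO (17.4% higher and 16.2% lower) and 29.4% in WT (15.2% higher and 14.2% lower), and the members' shares of 26.7% in KO and 10% in WT were under that background. In KO 23.3% of members rose and 3.33% fell. The median log2 change of the 30 was 0.14 in KO and -0.02 in WT, against -0.01 and -0.02 for all genes. The difference between the diet effects in KO and WT passed for 0 histone genes, and for 0% of all genes, with 1 histone gene (H2afy) and 1110 genes in all at an unadjusted p under 0.05 by edgeR. DESeq2 and limma voom also called 0 histone genes for this difference.

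H3f3b (chr11:116021912-116027962), 1 of 2 genes for the replacement histone H3.3, changed in both genotypes. It was at 167, 166, 187, 169 and 165 CPM in KO HFD, against 120, 117, 130 and 131 CPM in KO chow. In WT it was at 171, 183, 189 and 160 CPM on HFD, against 131, 137 and 148 CPM on chow. The diets did not overlap in either genotype, and the log2 changes were 0.46 ± 0.07 in KO (edgeR adjusted p = 7.5e-05) and 0.34 ± 0.08 in WT (edgeR adjusted p = 0.0033). H3f3a, which encodes the same protein, averaged 69.2 ± 1.05 CPM in KO HFD and 70.7 ± 3.61 CPM in KO chow, and 71.5 ± 1.93 CPM in WT HFD and 75 ± 3.21 CPM in WT chow, with log2 changes of -0.03 ± 0.06 and -0.07 ± 0.06 that did not pass.

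Hist1h4i (chr13:22040636-22041362) was the H4 gene with the highest level per length. It was at 3.18, 3.5, 4.64, 3.94 and 3.3 CPM in KO HFD, against 1.52, 2.11, 1.2 and 1.94 CPM in KO chow, and at 4.47, 3.34, 3.12 and 3.13 CPM in WT HFD, against 1.98, 2.74 and 1.89 CPM in WT chow. Again the diets did not overlap, with log2 changes of 1.11 ± 0.20 in KO (edgeR adjusted p = 0.00035) and 0.68 ± 0.22 in WT (edgeR adjusted p = 0.029). The call in WT was lost without WT HFD library 1, WT chow library 1 or WT chow library 3, with adjusted p-values of up to 0.11. Hist1h4h, an H4 gene, had log2 changes of -0.39 ± 0.25 and -0.43 ± 0.30 that did not pass.

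H2afz (chr3:137864487-137866922) encodes H2A.Z, a variant found around transcription starts. In WT it was at 38.2, 33.2, 36.8 and 33.6 CPM on HFD, against 23.8, 30.3 and 23.4 CPM on chow. The WT diets did not overlap (log2 change 0.46 ± 0.15, edgeR adjusted p = 0.025). In KO it averaged 33.8 ± 5.5 CPM on HFD and 28.2 ± 4.6 CPM on chow, which did not pass (0.26 ± 0.13, edgeR adjusted p = 0.12). The difference between these effects was -0.20 ± 0.19 (edgeR adjusted p = 0.90). The WT call was lost without any 1 of WT HFD library 1, WT HFD library 3, WT chow library 1 and WT chow library 3, with adjusted p-values of up to 0.10.

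In KO livers, 4 further cluster genes were at low levels on both diets and passed. Hist2h2be (chr3:96221119-96223738), whose windows are all its own, was at 4.02, 3.54, 3.43, 3.28 and 3.73 CPM in KO HFD, against 0.978, 2.07, 2.83 and 1.99 CPM in KO chow. It did not overlap between diets, and its log2 change was 0.88 ± 0.23 (edgeR adjusted p = 0.0067). In WT it was at 2.33, 3.2, 2.19 and 2.66 CPM on HFD, against 1.46, 1.22 and 2.13 CPM on chow. The WT diets did not overlap either, and the change was 0.70 ± 0.27 (edgeR adjusted p = 0.063). The difference between the diet effects was 0.18 ± 0.36 (edgeR adjusted p = 0.95). The other H2B gene, Hist1h2be, was at 1.03, 0.987, 1.21, 0.523 and 0.925 CPM in KO HFD, against 0.598, 0.302, 0.283 and 0.353 CPM in KO chow. Its lowest HFD library lay within the chow range, the log2 change was 1.27 ± 0.34 (edgeR adjusted p = 0.0079), and its annotated span overlaps the end of Hist1h1e.

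The linker histone gene Hist1h1d was at 0.749, 0.374, 0.85, 1.29 and 0.727 CPM in KO HFD, against 0.109, 0.431, 0.0708 and 0.265 CPM in KO chow. Here 1 library of each diet overlapped, and the log2 change was 1.74 ± 0.44 (edgeR adjusted p = 0.0055). Hist1h2ap, at 0.374 to 1.29 CPM in KO HFD and 0.309 to 0.38 CPM in KO chow, changed by 1.28 ± 0.38 (edgeR adjusted p = 0.013), which limma voom did not call (adjusted p = 0.051). In WT the changes of Hist1h2be, Hist1h1d and Hist1h2ap were 0.19, 0.82 and 0.71 and did not pass.

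Hist3h2a (chr11:58954685-58956830), the H2A gene of the small Hist3 cluster, was at 7.07, 6.84, 6.16, 6.38 and 5.98 CPM in KO HFD, against 3.64, 2.71, 3.4 and 5.26 CPM in KO chow. The diets did not overlap in KO, with a log2 change of 0.78 ± 0.17 (edgeR adjusted p = 0.0016). In WT it averaged 6.03 ± 0.614 CPM on HFD and 4.9 ± 0.873 CPM on chow, which overlapped (0.30 ± 0.19, edgeR adjusted p = 0.24). The difference between the diet effects was 0.48 ± 0.25 (edgeR adjusted p = 0.79).

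The only fall came from a gene with no sequence of its own. Hist2h2aa2 (chr3:96239749-96240276) was at 6.41, 3.57, 3.55, 3.7 and 4.49 CPM in KO HFD, against 7.72, 10.3, 15.7 and 6.8 CPM in KO chow, a log2 change of -1.22 ± 0.30 (edgeR adjusted p = 0.0053). Its partner Hist2h2aa1 averaged 25.6 ± 3 CPM in KO HFD and 22.5 ± 2.87 CPM in KO chow (0.18 ± 0.12, edgeR adjusted p = 0.26). Of the 512 and 454 windows of Hist2h2aa1 and Hist2h2aa2, 0 were unique. They share 454 windows, of which 0 occur in this pair alone. Summed, the pair stood at 29.9 ± 3.74 CPM in KO HFD and 32.6 ± 1.57 CPM in KO chow (SD), a log2 change of -0.12 ± 0.10 that did not pass (edgeR adjusted p = 0.37), so the call for Hist2h2aa2 was absent from the sum.

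The 3 picked H2B copies did not pass for diet in either genotype. Hist1h2br had log2 changes of -0.12 ± 0.26 in KO (edgeR adjusted p = 0.75) and -0.63 ± 0.44 in WT (edgeR adjusted p = 0.31), and the difference was 0.50 ± 0.51. The sum of the copies averaged 6.26 ± 0.505 CPM in KO HFD and 6.17 ± 0.852 CPM in KO chow, a log2 change of 0.01 ± 0.15 (edgeR adjusted p = 0.95), and 0.668 ± 0.155 CPM in WT HFD and 0.83 ± 0.225 CPM in WT chow, a log2 change of -0.33 ± 0.25 (edgeR adjusted p = 0.35). A p over the threshold does not show that diets were alike.

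**Figure D4:**
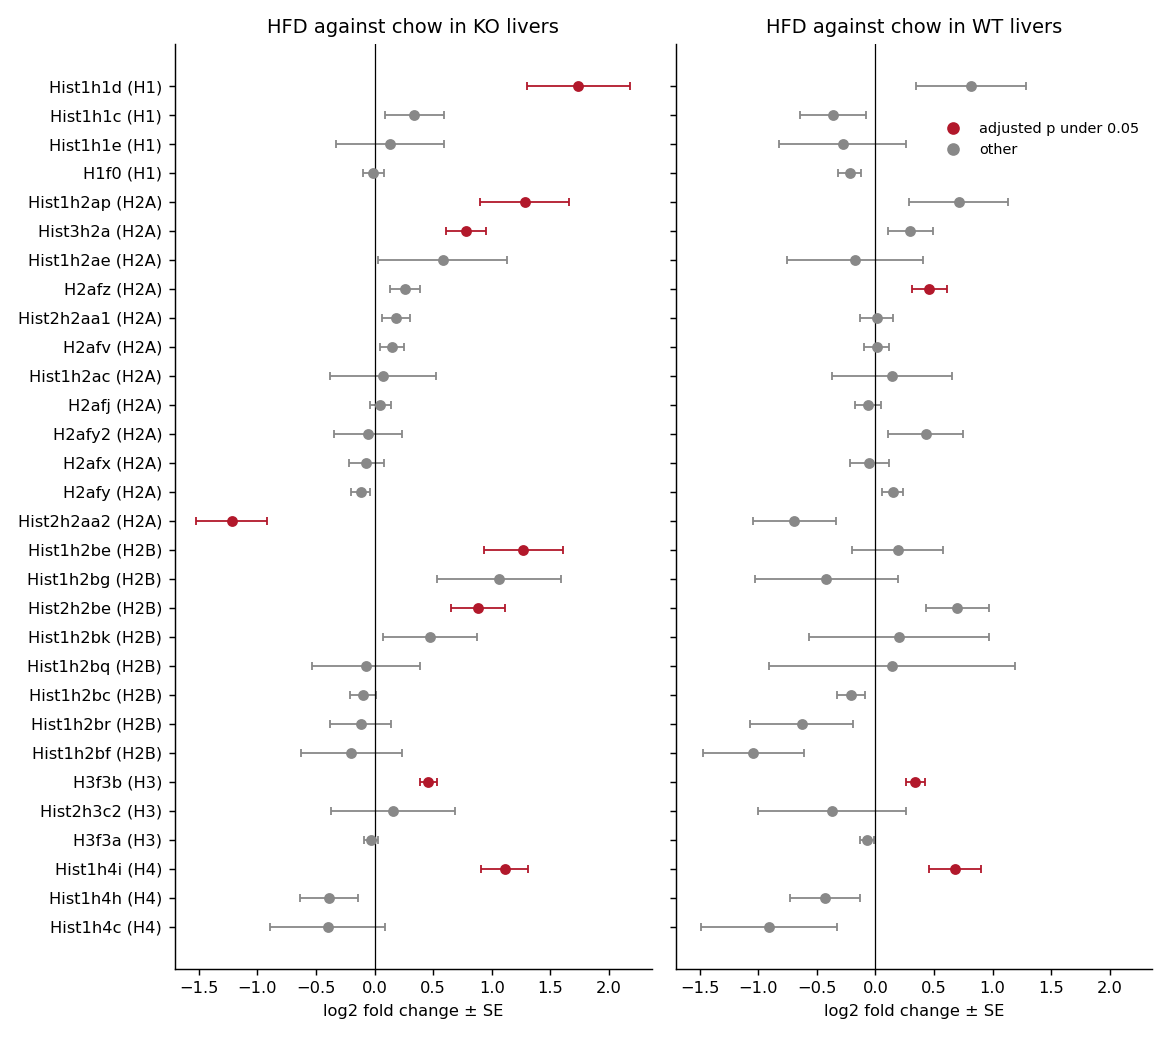
Log2 fold changes of HFD over chow with SE are shown for the 30 tested histone genes, in KO livers (left) and WT livers (right), in order of class. Red points passed at an adjusted p under 0.05: 8 in KO, from 1.74 for Hist1h1d to -1.22 for Hist2h2aa2, and 3 in WT.

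By class, H3 was the one whose summed level did not overlap between diets in both genotypes. It was at 241 ± 9.81 CPM in KO HFD and 196 ± 4.15 CPM in KO chow, and at 248 ± 12.1 CPM in WT HFD and 215 ± 10.8 CPM in WT chow (SD). Most of it was H3.3, since the 5 H3 cluster genes summed to between 0.283 and 2.25 CPM in any library. The H1 sum was 220 ± 16.3 CPM in KO HFD and 205 ± 36.3 CPM in KO chow, and 215 ± 20.7 CPM in WT HFD and 258 ± 57.8 CPM in WT chow. H2A was at 151 ± 6.91 CPM in KO HFD and 146 ± 9.64 CPM in KO chow, and at 153 ± 7.03 CPM in WT HFD and 143 ± 10.4 CPM in WT chow. H4 ran lowest in reads, at 6.1 ± 0.994 CPM in KO HFD and 4.77 ± 0.356 CPM in KO chow, and 5.33 ± 0.94 CPM in WT HFD and 4.87 ± 0.897 CPM in WT chow. The H1, H2A, H2B and H4 sums overlapped between diets in each genotype. These diet values depend on TMM: with totals left unscaled, all log2 diet changes shift up by 0.32 in KO and 0.26 in WT.

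Between KO and WT, the class sums overlapped on both diets, with 1 exception. The H3 sum in KO chow, 191 to 201 CPM, lay below that in WT chow, 204 to 225 CPM. The 6 H1 cluster genes summed to 58.1 ± 23.2 CPM in KO chow and 97.7 ± 33.7 CPM in WT chow (SD), and these groups overlapped. That sum is mostly Hist1h1c, the H1.2 gene, which was at 47.8, 49.8, 39.2 and 90.8 CPM in KO chow, against 58.1, 119 and 112 CPM in WT chow.

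By cluster, the 32 Hist1 genes summed to 197 ± 13.2 CPM in KO HFD and 202 ± 10.8 CPM in WT HFD, and to 186 ± 43.4 CPM in KO chow and 241 ± 34.8 CPM in WT chow (SD). The groups overlapped on each diet, also without the 3 picked copies. The 6 Hist2 genes summed to 34.7 ± 4.38 CPM in KO HFD and 32.4 ± 3.89 CPM in WT HFD, and to 35.7 ± 1.73 CPM in KO chow and 34.3 ± 4.65 CPM in WT chow, again with overlap. The 10 genes outside the clusters held most of the histone reads, at 499 ± 9.74 CPM in KO HFD and 502 ± 18.4 CPM in WT HFD, and at 451 ± 19.6 CPM in KO chow and 480 ± 41.3 CPM in WT chow.

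**Figure D5:**
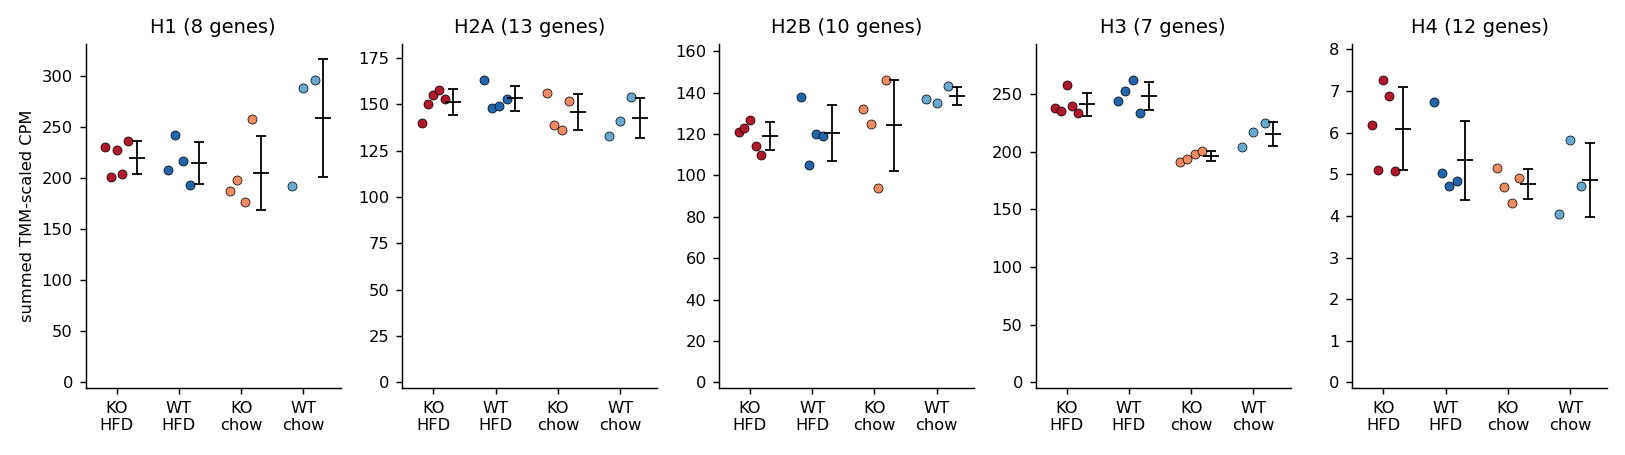
Each point is the summed TMM-scaled CPM of 1 histone class in 1 library, with the group mean and SD beside the points (n = 5 KO HFD, 4 WT HFD, 4 KO chow and 3 WT chow). H3 lies at 234 to 258 CPM in KO HFD and 234 to 262 in WT HFD, above 191 to 201 in KO chow and 204 to 225 in WT chow, while the other classes overlap between diets.

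Levels were compared between genes per kilobase of annotated exon, as means over the 16 libraries. The H1 genes were led by H1f0, for the H1.0 of resting cells, at 71.5 CPM per kb and Hist1h1c at 47.2. In H2A, Hist2h2aa1, with 0 windows of its own, was at 41.3 CPM per kb and H2afz at 17.6. Hist1h2bc led the H2B genes at 101 CPM per kb, far above Hist1h2bk at 1.73, Hist1h2br at 1 and Hist2h2be at 0.98. Hist1h2bk was at 2.57 to 4.59 CPM per kb in KO HFD, against 0.146 to 0.781 in WT HFD. Hist1h2br was at 1.19 to 1.9 CPM per kb in KO HFD, against 0.0761 to 0.276 in WT HFD. Hist2h2be was at 1.25 to 1.54 CPM per kb in KO HFD, against 0.836 to 1.22 in WT HFD, so in WT HFD it stood above both and the order over all 16 libraries does not hold there. H3f3b and H3f3a stood at 51.9 and 20.3 CPM per kb, and the leading H4 genes, Hist1h4i and Hist1h4h, at 3.96 and 2.51. With coding length in place of exon length, 9 of these 10 leading genes kept their place among the top 2 of their class, and Hist1h2bk came after Hist1h2bc, Hist2h2be and Hist1h2br.

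Genes of DNA replication and cell division are the setting in which cluster histones are usually made. In KO livers 26 of 34 such genes passed as higher and 2 as lower on HFD, where 17.4% of all genes were higher and 16.2% lower. Their median log2 change was 1.47, against -0.01 for all genes. In WT livers 24 were higher and 1 lower, where 15.2% of all genes were higher and 14.2% lower. The median in WT was 1.29, against -0.02 for all genes. Top2a, the topoisomerase of dividing cells, averaged 4.34 ± 1.57 CPM in KO HFD and 0.527 ± 0.245 CPM in KO chow (log2 change 3.0 ± 0.33, edgeR adjusted p = 3.8e-06). In WT it averaged 4.26 ± 0.711 CPM on HFD and 0.266 ± 0.159 CPM on chow (4.03 ± 0.44, edgeR adjusted p = 4.1e-06). The licensing factor Cdc6 changed by 3.63 ± 0.55 in KO (edgeR adjusted p = 8.4e-05) and 3.51 ± 0.72 in WT (edgeR adjusted p = 0.0014). The mitotic genes Cdc20, Cdk1 and Ccnb1 rose in both genotypes, and Bub1, which was at 0 in all WT chow libraries, averaged 0.391 ± 0.389 CPM in WT HFD. Thymidine kinase Tk1 fell in both genotypes, by 0.50 in KO and 0.71 in WT on the log2 scale, and the atypical E2F gene E2f8 fell in KO by 0.92.

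Beside this list, 18 tested cluster histone genes other than the picked copies had a median log2 diet change of 0.26 in KO. Of them, 6 passed as higher and 1 as lower on HFD, where 17.4% of all genes were higher and 16.2% lower. In WT their median was -0.19, with 1 higher and 0 lower, where 15.2% of all genes were higher and 14.2% lower. For KO against WT, 0 of the 34 replication genes passed on either diet, where 0.00594% of all genes passed on each. In this comparison 24 of 34 on HFD and 22 of 34 on chow had values above 0, against 51.1% of all genes on HFD and 50.1% on chow.

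Of 16 tested genes that transcribe histone genes or process the ends of their mRNA, 3 rose and 1 fell in KO and 2 rose and 1 fell in WT on HFD. Npat, the coactivator of cluster histone genes, averaged 10.8 ± 1.41 CPM in KO HFD and 8.31 ± 1.26 CPM in KO chow (log2 change 0.37 ± 0.13, edgeR adjusted p = 0.036) and rose by 0.49 in WT. Eri1, an exonuclease that trims and decays histone mRNA ends, rose by 0.44 in KO and 0.42 in WT, and the processing factor Cstf2 rose by 0.35 in KO. Lsm1 of the decay machinery fell by 0.35 in KO, and Hinfp, which activates H4 genes, fell by 0.43 in WT. The median of the list was 0.02 in KO and 0.06 in WT, and its called shares were under the 33.6% and 29.4% of all genes.

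Of 24 histone chaperone genes, 3 rose in each genotype on HFD, and 2 fell in KO and 3 in WT, again under the 33.6% and 29.4% of all genes called. The 3 that rose were Chaf1a, Chaf1b and Asf1b in both genotypes. Chaf1a, of the CAF-1 complex that deposits H3 and H4 on new DNA, averaged 3.2 ± 1.05 CPM in KO HFD and 0.777 ± 0.139 CPM in KO chow (log2 change 2.05 ± 0.27, edgeR adjusted p = 1.7e-05), and changed by 2.04 ± 0.31 in WT (edgeR adjusted p = 0.00012). Chaf1b and Asf1b rose by 1.57 and 2.20 in KO and by 1.01 and 2.95 in WT. Ep400 and Ubn2 fell in KO, by 0.73 and 0.22, and Ubn2, Daxx and Rbbp4 fell in WT, by 0.31, 0.57 and 0.26. The falls of Ubn2 in KO and Rbbp4 in WT are no larger than the shift given by leaving out TMM. None of these 24 genes passed for KO against WT on HFD, on chow or over both diets, where 0.00594%, 0.00594% and 0.0178% of all genes passed.

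Hepatocyte markers fell for 4 of 8 in KO and 5 of 8 in WT on HFD, where 16.2% and 14.2% of all genes fell. Markers of other liver cells moved with the diet as well, where 17.4% of all genes rose in KO and 15.2% in WT. All 6 recruited macrophage markers rose in both genotypes, with a summed level of 31.8 to 42.2 CPM in KO HFD, 33.5 to 50.5 in WT HFD, 6.85 to 10.2 in KO chow and 5.3 to 8.94 in WT chow. Stellate cell markers rose for 4 of 6 in KO and 5 of 6 in WT, with sums of 270 to 366 CPM in KO HFD, 282 to 450 in WT HFD, 169 to 281 in KO chow and 176 to 208 in WT chow. Of 5 cholangiocyte markers, Spp1 and Krt19 rose in each genotype, while Epcam, Krt7 and Sox9 did not pass. The sum of this list, 63 to 113 CPM in KO HFD, 86.8 to 223 in WT HFD, 18.8 to 28.2 in KO chow and 21.1 to 40.1 in WT chow, is mostly Spp1, which averaged 77.8 ± 20.4 CPM in KO HFD and 15.6 ± 4.46 CPM in KO chow. Kupffer cell markers rose for 0 of 7 in KO and 4 of 7 in WT, and 0 of 8 T and NK cell markers and 0 of 6 B and plasma cell markers passed. Of 6 sinusoidal endothelial markers, Kdr and Stab2 fell in KO, and Cdh5, Lyve1 and Pecam1 rose in WT. Erythroid markers rose for 0 of 5 tested in KO and 4 of 5 in WT, neutrophil markers for 1 of 3 in KO and 3 of 3 in WT, and platelet markers for 1 of 3 in KO and 2 of 3 in WT. The neutrophil marker Mmp8 was at 0 in all WT chow libraries. The erythroid sum was 481 to 1809 CPM in KO HFD, 846 to 1989 in WT HFD, 465 to 579 in KO chow and 481 to 576 in WT chow. None of the hepatocyte, macrophage, stellate or cholangiocyte markers was at 0 in a whole group. Their part in the histone diet changes was not tested, and in whole liver fewer cells of a type and less RNA per cell cannot be told apart. Title numbers form a different series on each diet, so diet and number series cannot be told apart either.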

How the data were processed

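RNA of 16 mouse liver libraries was measured by sequencing. Per the labels' protocols, RNA was depleted of ribosomal RNA and reads were aligned with TopHat2 and quantified with Cuffdiff, on mm10 per the submitters' processing notes. Versions and strand setting are not stated. The labels' protocols name a small RNA kit and 45 cycles beside reads of 75 bases. The authors deposited estimated counts per gene, not scaled to depth. How reads were split between copies is not stated, and of 800 histone values 26 lay above 0 but under 1e-06 counts.

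Estimated counts were rounded, filtered with filterByExpr of edgeR 4.0.16 and scaled by TMM. A quasi-likelihood model with a mean for each of the 4 groups was fitted to all 16 libraries (12 residual degrees of freedom), with two-sided tests and Benjamini-Hochberg adjustment over 16830 genes, with a threshold of 0.05. The SE was taken as the size of the log2 fold change over the root of F. For correlations, log2 CPM had a prior count of 2. DESeq2 1.42.0 and limma voom 3.58.1 were alternatives, with other filters, scalings and left-out libraries. KO HFD library 1 and WT chow library 3 stood apart on principal components and were also left out together.

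Members, gene lists and rules for naming genes were chosen with earlier results of these data known. The rule named the 3 H2B copies, members that passed for diet, the 5 highest and 5 lowest in the knockout comparison, the 2 highest per length in each class, up to 4 genes each way per list, Hfe and 3 neighbours and the 5 genes most like Hist1h2br. Gene positions and transcripts come from GENCODE M21, promoters (matched by symbol, synonym and position) and miR-33-5p from RefSeq (GRCm38.p6).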

Additional observations from a re-analysis of the deposited data

Results flagged for a closer look

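Values of single libraries were set against the rest of their group for named genes and class sums, in groups of 4 or 5 libraries. Of 51 groups of values 4 had a library far from the others, where chance gives about 1 in 20. H3f3b was at 187 CPM in KO HFD library 3, against 165 to 169 CPM in the other 4, and the H3 sum, which includes it, was at 258 CPM in that library, against 234 to 240 CPM. Hist1h4i was at 4.47 CPM in WT HFD library 1, against 3.12 to 3.34 CPM in the other 3, and the H4 sum, which includes it, was at 6.73 CPM in that library, against 4.72 to 5.04 CPM. Hist1h4i was no longer called in WT without WT HFD library 1, and H3f3b was called without KO HFD library 3.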

How the results depend on the processing

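The count of histone genes called for diet in KO was 8 and ran from 7 to 10 over 25 alternatives. In WT it was 3 and ran from 1 to 4 when single libraries were left out, with 1 call, H3f3b, left without WT HFD library 1. The difference between diet effects stayed at 0 under all 24 alternatives. Counts for KO against WT include copies picked on that comparison, so nothing is read from them. On HFD, 1 gene was called, against 2 without a filter, 3 with DESeq2, 3 with the compared groups alone, and 1 to 3 with single libraries left out (3 without KO chow library 4). On chow, 1 was called, against 2 with DESeq2, 0 with limma voom, 0 with the compared groups alone, 0 without both libraries that stood apart, and 0 to 2 with single libraries left out (0 without KO chow library 2, WT chow library 2 or WT chow library 3, and 2 without KO chow library 4). Over both diets, 3 were called, against 1 with limma voom and 1 with the copies summed, which leaves 1 gene in place of 3. The log2 fold changes of the copies ran from 2.67 to 3.89 on HFD and from 2.39 to 4.53 on chow, and Hist1h2br on chow was at 3.40, in place of 2.68, without WT chow library 1. Without TMM, log2 diet ratios of class sums in KO were 0.43 (H1), 0.38 (H2A), 0.27 (H2B), 0.62 (H3) and 0.68 (H4), and in WT 0.00, 0.37, 0.06, 0.47 and 0.40. Sums of copies and class sums without single libraries were chosen after seeing the data. No paired analysis was possible because replicate numbers only follow the order of deposit and pair nothing. Counts of the copies in WT, often under 10, limit the precision of their fold changes.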

Other observations

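Chromosome 13, chosen after values were seen, held 682 of the 16830 genes tested. It held 7 of the 12 genes with the smallest unadjusted p for KO against WT over both diets. These were the 3 H2B copies picked on this comparison, the noncoding genes CT009713.5 and AC153150.1, Hfe and the RING finger gene Rnf44. CT009713.5 (chr13:37541357-37549725) averaged 1.98 ± 0.455 CPM in KO HFD and 0.277 ± 0.0995 CPM in WT HFD, and 1.91 ± 0.637 CPM in KO chow and 1 ± 1.25 CPM in WT chow (SD), where 1 WT library was at 2.45 CPM. AC153150.1 (chr13:39440565-39449671) averaged 1.64 ± 0.446 CPM in KO HFD and 0.648 ± 0.243 CPM in WT HFD, and 1.62 ± 0.376 CPM in KO chow and 0.784 ± 0.753 CPM in WT chow. Of these 4 genes outside the histones, none passed the adjusted threshold.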
